A study of Mus musculus with 6 samples.

Results

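The genes described here build, reshape and renew mitochondria: the machinery that imports proteins, the factors that fuse and divide the organelle, those that mark it for removal, and the regulators that set how much of it a cell makes. They were taken by name as the protein-coding entries of the deposited table that begin with Timm or Tomm and a digit or with Samm, with 19 further named genes. This gave 45 genes of 54532 in the table: 11 of outer membrane import, 15 of inner membrane import, 3 of fusion, 5 of fission, 4 of mitophagy and the prohibitins, and 7 of biogenesis. The antisense gene Tomm6os also matched by name and was left out because it does not code for protein.

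The cells were ventricular cardiomyocytes from newborn mice (age 1 day, C57BL/6J in the culture protocol, C57BL/6 in the sample labels), in 2 groups of 3 libraries. The libraries labelled sh-GDF11 received a hairpin RNA against Gdf11, which encodes a secreted growth factor related to myostatin, and are called shGDF11 here. Control libraries, labelled sh-nc, received a control hairpin that the protocol calls sh-Vector, so both groups carried a vector, given at a multiplicity of infection of 200, with RNA taken at 48 h. The labels leave unsaid whether replicate numbers stand for cultures or for different hairpins. The p-values therefore reflect spread among these 6 libraries alone, and that spread may be technical.

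Mitochondria import nearly all of their proteins from the cytosol. Precursors pass the translocase of the outer membrane (TOM), whose channel is Tomm40, and then the translocases of the inner membrane (TIM), while the small Timm proteins carry hydrophobic precursors across the space between the membranes. Mitofusins and Opa1 fuse the outer and inner membranes, and the GTPase Dnm1l, recruited by Mff, Fis1, Mief1 and Mief2, divides the organelle. Biogenesis is driven by the coactivators encoded by Ppargc1a, Ppargc1b and Perm1, which work with the nuclear receptors Esrra and Esrrg and with Nrf1, and reaches mitochondrial DNA through Tfam. The heart relies on this network because contraction consumes ATP continuously, and around birth its cells expand their mitochondria.

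Gdf11 was at 2.76, 2.30 and 2.31 FPKM (fragments scaled for gene length and sequencing depth) in the control libraries and at 0.614, 0.601 and 0.778 in shGDF11, or 27.1% of control. The libraries held 15267083 to 16152910 reads in listed genes. Control replicate 1 stood apart from the other controls: a chi-square of its reads against theirs came to 15.1 and 20.3 per degree of freedom, against 5.85 between control replicates 2 and 3 and 3.63 to 4.23 between shGDF11 libraries. A microRNA gene of 57 bases, Gm23935, held 11.7% of its summed FPKM, against 0.347% to 3.06% in the other 5. Protein-coding transcripts of the mitochondrial genome took 4.62% of its reads, against 6.10% and 6.27% in the other controls and 5.15% to 5.37% in shGDF11. Ribosomal RNA took 0.298% to 0.319% of reads in control and 0.470% to 0.502% in shGDF11, and the part of this in the results was not tested. Calls among the members that change without it are given with those members.

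As markers of the labelled cell type, 12 cardiomyocyte genes summed to 11092.3 to 12144.3 FPKM in control and 9488.7 to 9890.8 in shGDF11, with 5 called lower and 2 called higher. Markers of other cell types were also detected. Endothelial markers summed to 104.7 to 112.8 and 75.9 to 79.3 FPKM (7 of 10 called lower), and macrophage markers to 161.6 to 184.6 and 125.5 to 137.3 FPKM (4 of 9 tested called lower). Smooth muscle and pericyte markers summed to 1200.5 to 1315.9 and 565.6 to 583.7 FPKM (5 of 8 called lower, with Acta2 from 992.9 to 370.3 FPKM). Acta2 and Des (198.7 and 164.3 FPKM, not called) made up most of these sums, and Pdgfrb and Rgs5 were not called. The sum of 12 fibroblast markers was 707.4 to 735.6 and 700.9 to 710.1 FPKM (3 called higher, 1 lower). Vim, its largest term, was the one called lower (273.7 to 213.0 FPKM), and Col3a1, Col1a2 and Ddr2 were called higher. The 5 proliferation genes summed to 62.1 to 68.3 and 84.7 to 87.2 FPKM (3 called higher). Epicardial markers summed to 16.7 to 20 and 13.8 to 15.9 FPKM (1 of 4 called higher and 1 lower), and none of 6 erythroid genes passed the filter on low values. Of 2 brown fat genes, Ucp1 was below that filter, while Cidea passed it at 9.66 and 8.59 FPKM and was not called. Over all genes tested, 14.4% were called higher and 13.1% lower. In such bulk samples fewer cells of a type and less RNA per cell cannot be told apart, and the part of these shifts in the results below was not tested.

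Promoter sequence was available from RefSeq (GRCm38.p6) for 41 of the 45 members. It was lacking for Ppargc1b, Timm21, Tomm7 and Tomm40l, which were not searched. Windows of 250 bases before to 50 after each start site were searched on both strands for the letters GCGCANGCG (NRF1), CCGGAAGT (GABP, an ETS factor), TCAAGGTCA (estrogen-related receptors) and AAGATGGCG (YY1). The GABP letters lay in windows of 11 of the 41 members (26.8%), against 8.85% of 10030 tested protein-coding genes and 4.31% of all genes with a window. These were Fis1, Mfn1, Mief1, Phb2, Tfam, Timm10, Timm10b, Timm23, Timm29, Timm8a2 and Tomm70a. The 41 members include Timm8a2, Tomm20l and Tomm6, which did not pass the filter on low values, unlike the tested genes. The NRF1 letters lay in 7 (17.1%: Esrra, Opa1, Phb, Pink1, Timm13, Timm8b and Tomm20), against 15.1% of the tested protein-coding genes. The estrogen-related receptor letters lay in Timm8b alone and the YY1 letters in Timm50 alone, against 0.329% and 3.49% of tested protein-coding genes. A match describes letters and not a bound site.

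The upstream stretches of the 4 members that were called changed and held such a match in the 250 bases before the RefSeq start are shown here, 5′ to 3′ on the gene's strand (GRCm38.p6), with the match in capitals. Mief1 and Fis1, which moved in opposite directions, carry the same GABP letters, and Pink1 and Timm13, both lower, carry NRF1 letters. The stretch of Mief1 is cut short so that no more than 30 bases of the annotated transcript are printed.
Mief1, chr15:80233830-80234047, plus strand: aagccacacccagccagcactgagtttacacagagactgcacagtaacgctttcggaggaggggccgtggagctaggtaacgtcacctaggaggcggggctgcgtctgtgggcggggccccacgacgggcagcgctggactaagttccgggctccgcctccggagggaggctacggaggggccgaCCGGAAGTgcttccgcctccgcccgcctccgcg
Fis1, chr5:136953025-136953274, plus strand: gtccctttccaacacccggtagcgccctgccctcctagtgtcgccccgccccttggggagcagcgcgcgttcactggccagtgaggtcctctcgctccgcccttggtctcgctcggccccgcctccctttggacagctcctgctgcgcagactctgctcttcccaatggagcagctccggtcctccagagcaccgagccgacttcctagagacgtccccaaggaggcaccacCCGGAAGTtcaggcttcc
Pink1, chr4:138326297-138326546, minus strand: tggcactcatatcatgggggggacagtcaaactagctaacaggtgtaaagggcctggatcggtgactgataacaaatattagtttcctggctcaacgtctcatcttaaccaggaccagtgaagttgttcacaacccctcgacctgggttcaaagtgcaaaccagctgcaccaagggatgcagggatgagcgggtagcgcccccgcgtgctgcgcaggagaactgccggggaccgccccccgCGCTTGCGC
Timm13, chr10:80900970-80901219, minus strand: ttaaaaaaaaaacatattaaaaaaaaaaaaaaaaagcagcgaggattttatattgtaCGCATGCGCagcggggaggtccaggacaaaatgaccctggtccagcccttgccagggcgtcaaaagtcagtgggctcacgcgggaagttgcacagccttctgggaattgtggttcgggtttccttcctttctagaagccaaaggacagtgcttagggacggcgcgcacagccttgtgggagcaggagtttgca
The match began 65 bases before the RefSeq start in Mief1, 18 in Fis1, 9 in Pink1 and 193 in Timm13. The GABP letters also lie upstream of the starts of members that were not called, such as Mfn1 and Tfam, and the NRF1 letters upstream of Opa1 and Tomm20.

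Of the 45 members, 42 passed the filter of a mean of at least 0.5 FPKM and were tested with limma on log2(FPKM + 0.5), with p-values adjusted over all 15418 genes tested. A gene was called at an adjusted p under 0.05. The 2 members called higher were Esrrg and Mief1 (4.76% of those tested, against 14.4% of all genes tested). The 7 called lower were Fis1, Ppargc1b, Pink1, Phb, Timm13, Tomm40 and Tomm34 (16.7%, against 13.1% of all genes tested), and 33 were not called. The median log2 fold change was -0.08 over the members and 0.01 over all genes tested. For 15 of the 42 all libraries of one group lay beyond those of the other, as they did for 45.8% of all genes tested. Rescaling to TPM moved the share of higher genes among all calls from 52.4% to 66.3%. The filter of 0.5 and the added 0.5 were kept on the TPM scale, where 19679 genes and 43 members were tested. The members' median was then 0.01, against 0.09 over all genes, and 2 members were called higher and 5 lower.

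**Figure D1:**
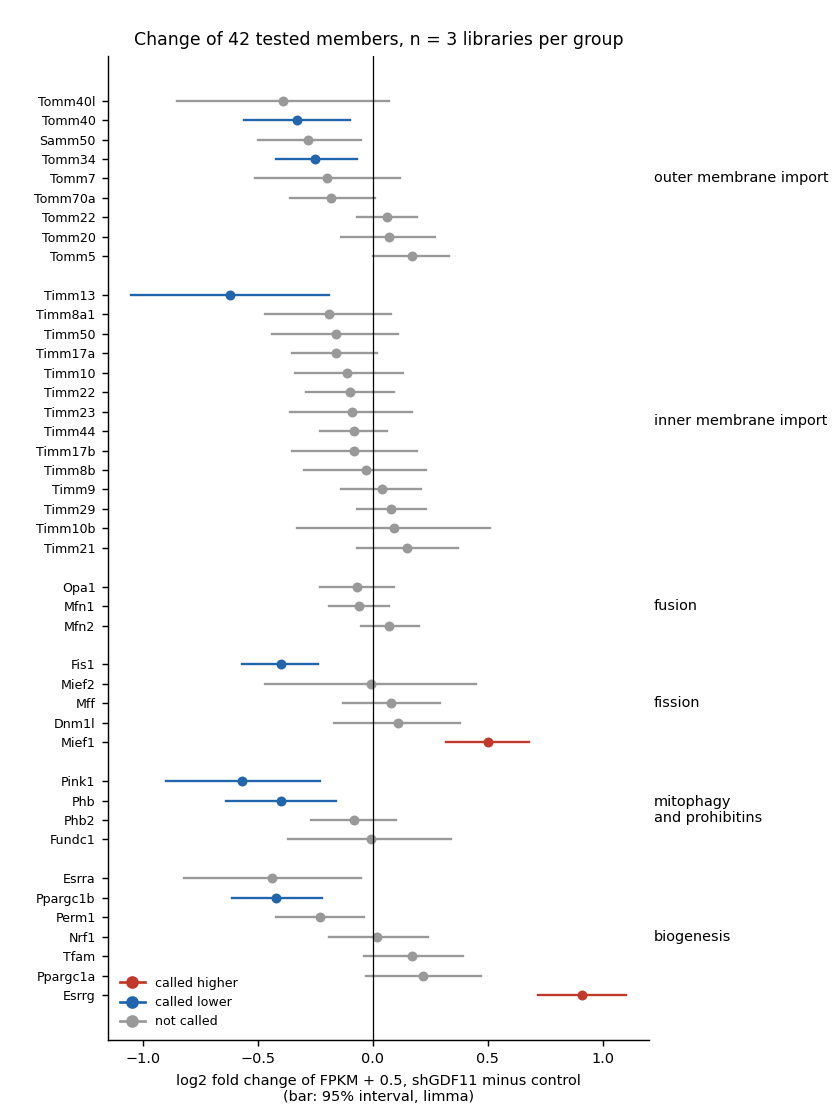
Log2 fold change of FPKM + 0.5 (shGDF11 minus control) for the 42 tested members, grouped by role, with 95% intervals from limma. Esrrg and Mief1 lie to the right of 0 and 7 members called lower to the left, while the 3 fusion genes lie at or near 0.

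The calls differed in whether they held when 1 library was left out. Without shGDF11 replicate 2 or replicate 3, 2 members were called lower, Fis1 and Ppargc1b, and without control replicate 2 or shGDF11 replicate 1, 3 were, with Phb added. In the same fits fewer of all genes were called too, 1263 to 1667 higher and 1083 to 1397 lower, against 2227 and 2026 with all libraries. Esrrg, Fis1 and Ppargc1b were called in all 20 alternatives to the main test, and Mief1 in all 19 in which it was tested.

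**Figure D2:**
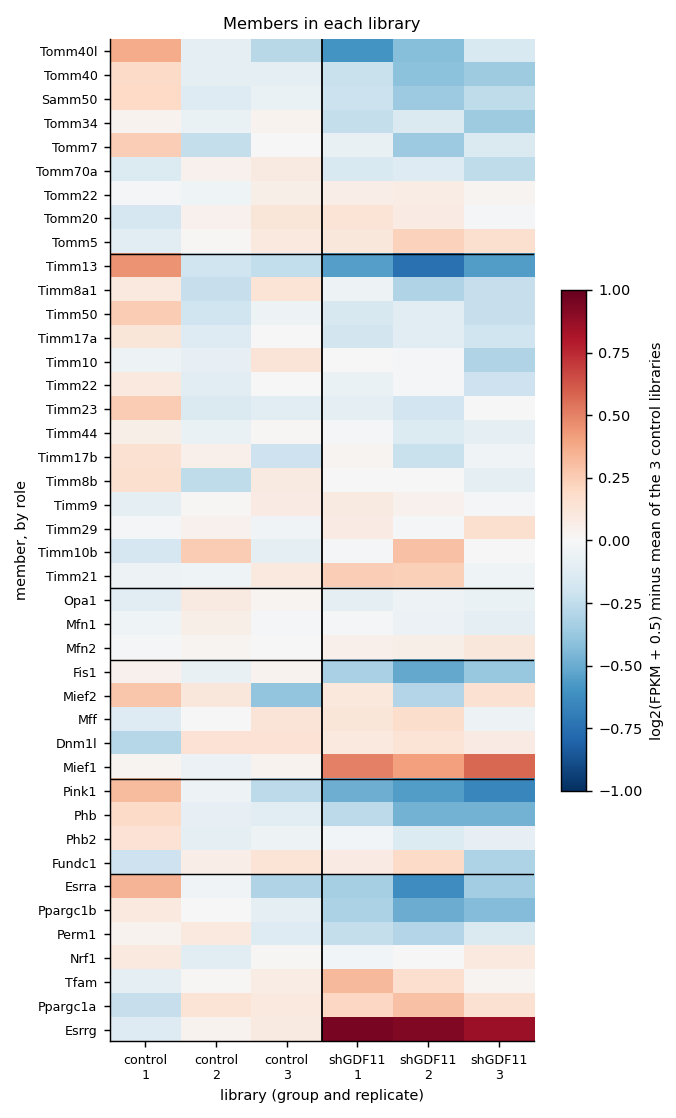
Log2(FPKM + 0.5) of each tested member in each library, minus the mean of the 3 control libraries, with members ordered by role. The row of Esrrg is raised in all 3 shGDF11 libraries, and control replicate 1 departs from the other controls in rows such as Timm13, Pink1 and Esrra.

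Outer membrane import includes the receptors Tomm20, Tomm22 and Tomm70a, the channel Tomm40, the small subunits Tomm5, Tomm6 and Tomm7, and Samm50, which inserts barrel-shaped proteins. Of 9 tested, 2 were called lower and 0 higher (22.2% and 0%, against 13.1% and 14.4% of all genes tested). The channel gene Tomm40 was at 22.5, 18.5 and 18.4 FPKM in control and at 16.8, 14.7 and 15.3 in shGDF11. Every shGDF11 library was below every control, and Tomm40 fell by 0.33 on the log2 scale (SE 0.0964, limma adjusted p = 0.043). The call was lost after rescaling to TPM (limma adjusted p = 0.0702) and on leaving out control replicate 1, control replicate 2 or any shGDF11 library (limma adjusted p = 0.0524 to 0.142).

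Tomm34, a cytosolic co-chaperone that keeps precursors importable, was at 16, 14.9 and 16 FPKM in control and 13.2, 14.1 and 12.1 in shGDF11. The groups did not overlap, and it fell by 0.25 (SE 0.0738, limma adjusted p = 0.0459). This was the weakest of the 9 calls: it was kept in 7 of 20 alternatives and lost without any 1 library, and after TPM rescaling its limma adjusted p was 0.223. Samm50 was at 27.6, 21.8 and 22.9 and at 20.6, 18.6 and 20 FPKM, with no overlap and a log2 fold change of -0.28 (limma adjusted p = 0.0736, not called).

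The receptors and small subunits were not called. Tomm20 was at 32.2 ± 3.34 and 33.6 ± 1.86 FPKM (control, then shGDF11, as mean ± SD over 3 libraries, as in all such values below), and Tomm22 at 62.0 ± 2.37 and 64.5 ± 1.13 FPKM. The 95% interval of the log2 fold change ran from -0.14 to 0.27 for Tomm20 and from -0.07 to 0.19 for Tomm22. Tomm70a was at 15.7 ± 1.29 and 13.8 ± 0.665 FPKM (log2 fold change -0.18, limma adjusted p = 0.134), but was called lower without control replicate 1 (-0.25, limma adjusted p = 0.0338). Tomm5 was at 65.1, 70.4 and 74.9 and at 75.9, 82.2 and 78.2 FPKM, above control in every shGDF11 library but not called (limma adjusted p = 0.118). Tomm7 was at 23.1 ± 3.94 and 20 ± 2.08 FPKM.

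Members with few reads or shared exons say little. Tomm20l held 1 to 3 reads in each library and Tomm6 0 to 9, and neither was tested. Of the exon bases of Tomm6, 76.0% are shared with Gm21981 on the same strand and 27.6% lie opposite Usp49 or Tomm6os. Tomm40l was at 2.15 ± 0.634 and 1.5 ± 0.311 FPKM (limma adjusted p = 0.18), and 64.3% of its exon bases lie opposite Nr1i3. Strand-specific counting is not stated, and without it those reads cannot be told apart.

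Inner membrane import held the most members, with 1 called lower and 0 higher of 14 tested. That is 7.14% and 0%, against 13.1% and 14.4% of all genes tested. The call was Timm13, which pairs with Timm8 proteins to carry precursors across the intermembrane space. It was at 49.5, 31.4 and 30.5 FPKM in control and 24.5, 21.4 and 24.4 in shGDF11, with no overlap. Timm13 fell by 0.62 (SE 0.182, limma adjusted p = 0.0432), with a 95% interval from -1.05 to -0.19. Control replicate 1 was far above the other 2, and without it the fall was 0.40 (limma adjusted p = 0.0131). The call was lost on leaving out control replicate 2 or any shGDF11 library (limma adjusted p = 0.0549 to 0.132).

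The partners of Timm13 were not called. Timm8a1 was at 14.2, 11.2 and 14.6 FPKM in control and 12.8, 10.7 and 11.3 in shGDF11 (log2 fold change -0.19, 95% interval -0.47 to 0.08). Timm8b, the member with the highest mean FPKM in control, was at 123.3, 92.3 and 117.6 and at 110.1, 109.7 and 103.4 FPKM (-0.03, 95% interval -0.30 to 0.23). The groups overlapped for both. Timm8a2 had 0 reads in all 6 libraries. Timm9 and Timm10, which form the other small chaperone complex, were at 6.41 ± 0.423 and 6.58 ± 0.277 FPKM and at 36.5 ± 3.02 and 33.9 ± 3.83 FPKM. Timm10b was at 0.770 ± 0.205 and 0.850 ± 0.165 FPKM. Whether Timm13 differed from its partners was not tested.

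The channels and motor of the inner membrane were not called. Timm23, the channel for presequence proteins, was at 43.2, 32.7 and 33.5 FPKM in control and 34.0, 31.7 and 36 in shGDF11, with the high value again in control replicate 1. Its log2 fold change was -0.09 and turned to 0.03 without that library. The sign of Timm8b, Timm9, Tomm20 and Mief2, none of them called, also turned without it, to 0.05, -0.01, -0.02 and 0.13. Timm17a, a structural partner of Timm23, was at 14.0 ± 1.25 and 12.4 ± 0.453 FPKM and its paralog Timm17b at 8.02 ± 1.06 and 7.56 ± 0.723 FPKM. The receptor Timm50 was at 21.3 ± 3.55 and 18.8 ± 0.847 FPKM, the motor anchor Timm44 at 27.1 ± 1.14 and 25.6 ± 1.17 FPKM, and Timm21 at 20 ± 1.21 and 22.3 ± 2.49 FPKM. Timm22, the channel for carrier proteins, was at 11.1 ± 0.804 and 10.4 ± 0.709 FPKM, and its partner Timm29 at 25.4 ± 0.72 and 26.9 ± 1.61 FPKM. Over the genes of this paragraph other than Timm23 and Mief2 the 95% intervals lay within -0.44 and 0.37 on the log2 scale.

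None of the 3 fusion genes was called. Mfn2, the more abundant mitofusin, was at 100.7, 104.1 and 101.8 FPKM in control and 106.0, 106.5 and 110.6 in shGDF11. All shGDF11 values lay above the controls, by a log2 fold change of 0.07 (95% interval -0.05 to 0.20, limma adjusted p = 0.321). Mfn1 was at 35.5, 38.0 and 36.1 and at 36.2, 35 and 34.1 FPKM, overlapping (-0.06, 95% interval -0.19 to 0.07). Opa1, which fuses the inner membrane and shapes the cristae, was at 20, 23.0 and 22.0 and at 20.2, 20.8 and 20.6 FPKM (-0.07, 95% interval -0.23 to 0.09). It was called lower only with GC content and length trends removed (-0.15, limma adjusted p = 0.0346).

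In fission, 2 of the 4 genes for receptors of Dnm1l moved, in opposite directions. Of all genes tested, 14.4% were called higher and 13.1% lower. Mief1, which recruits Dnm1l to the outer membrane, lies on the plus strand of chromosome 15 at 80234018 to 80253371 (GRCm38, as are all coordinates). Its level was 4.0, 3.73 and 4.02 FPKM in control and 5.76, 5.36 and 6.08 in shGDF11, 146.3% of control. The groups were well apart, and Mief1 rose by 0.50 (SE 0.0759, limma adjusted p = 0.00421).

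Fis1, a small tail-anchored protein of the outer membrane, lies on the plus strand of chromosome 5 at 136953275 to 136966234. It was at 62.4, 57.4 and 61.9 FPKM in control and 48.2, 42.4 and 46.5 in shGDF11, 75.4% of control. No shGDF11 library reached the lowest control, and Fis1 fell by 0.40 (SE 0.0691, limma adjusted p = 0.00653).

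The GTPase and the other receptors were not called. Dnm1l was at 21.4, 28.8 and 28.8 FPKM in control and 28.0, 28.7 and 27.6 in shGDF11. Apart from the low value in control replicate 1 the libraries lay between 27.6 and 28.8 FPKM, and the log2 fold change of 0.11 became -0.03 without that library. Mff was at 14.5, 15.9 and 17.4 and at 17.3, 18 and 15.4 FPKM (0.08, 95% interval -0.13 to 0.29). Mief2, the paralog of Mief1, was at 9.11, 8.06 and 5.53 and at 8.0, 5.96 and 8.31 FPKM. Its groups overlapped widely, and the 95% interval from -0.47 to 0.45 includes changes of the size seen for Fis1.

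**Figure D3:**
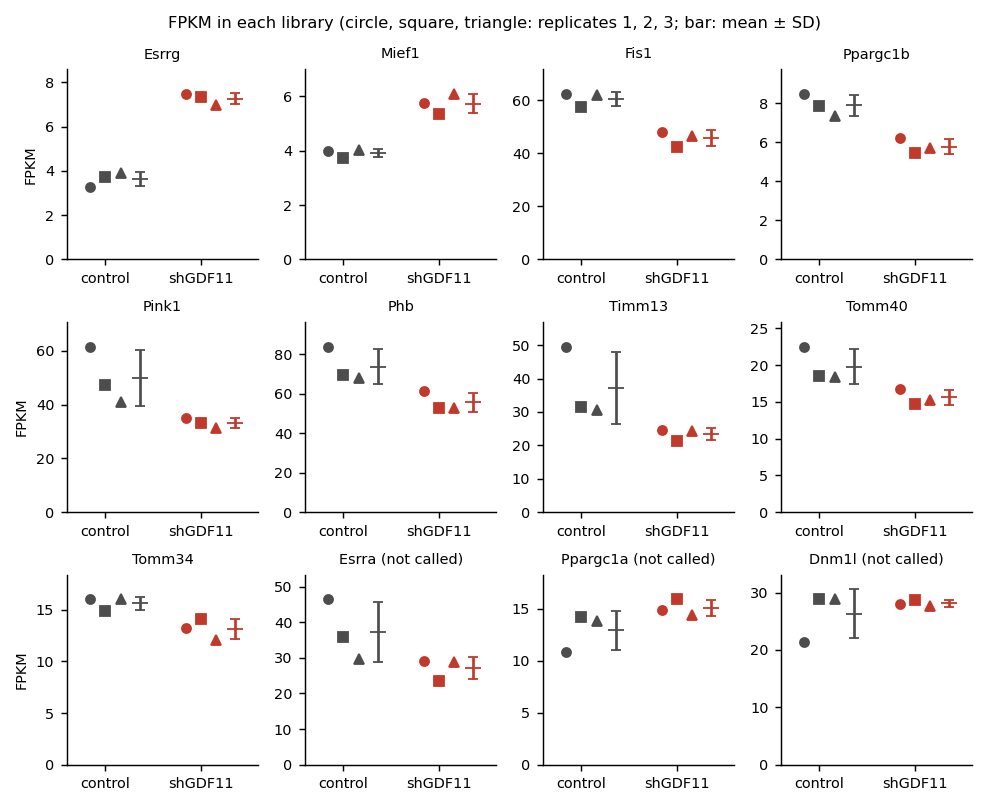
FPKM in each library for the 9 called members and for Esrra, Ppargc1a and Dnm1l, which were not called, with the mean ± SD of each group (n = 3) beside the points. Esrrg and Mief1 are higher in every shGDF11 library than in any control, and the members called lower are lower in every shGDF11 library. Pink1, Timm13 and Esrra have their highest value in control replicate 1, as do Fis1, Ppargc1b, Phb and Tomm40.

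Pink1, the kinase that accumulates on damaged mitochondria and marks them for mitophagy, was at 61.5, 47.4 and 41.0 FPKM in control and 34.9, 33.3 and 31.2 in shGDF11. The 3 shGDF11 libraries were close together and below all controls, which spread widely. Pink1 fell by 0.57 (SE 0.141, limma adjusted p = 0.0249), and by 0.41 without control replicate 1 (limma adjusted p = 0.0166). Leaving out control replicate 2 or any shGDF11 library ended the call (limma adjusted p = 0.0585 to 0.0843). Fundc1, a mitophagy receptor of the outer membrane, was at 8.38, 10.2 and 10.8 and at 10.4, 11.2 and 7.77 FPKM and was not called.

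The prohibitins Phb and Phb2 assemble together into rings in the inner membrane. Phb was at 83.7, 69.4 and 67.9 FPKM in control and 61.2, 52.7 and 52.6 in shGDF11, without overlap. Phb fell by 0.40 (SE 0.102, limma adjusted p = 0.0262), but was not called without shGDF11 replicate 2 (limma adjusted p = 0.095) or replicate 3 (0.0921). Phb2 was at 46.8, 39.3 and 40.8 and at 41.3, 38.4 and 39.8 FPKM, with overlap (-0.08, 95% interval -0.27 to 0.10). The log2 ratio of Phb to Phb2 was 0.84, 0.82 and 0.73 in the control libraries and 0.57, 0.46 and 0.40 in shGDF11.

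Among regulators of biogenesis the nuclear receptor gene Esrrg had the largest change of all members. Esrrg, an orphan receptor that activates genes of oxidative metabolism in the heart, lies on the plus strand of chromosome 1 at 187608791 to 188214885. It was at 3.28, 3.73 and 3.90 FPKM in control and 7.47, 7.35 and 6.98 in shGDF11, 199.8% of control. Each group was tight and far from the other, and Esrrg rose by 0.91 (SE 0.0813, limma adjusted p = 0.000691). Over the 20 alternatives its log2 fold change was 0.83 to 1.06.

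Its relative Esrra, the more abundant of the pair per length, was at 46.4, 35.8 and 29.6 FPKM in control and 29.0, 23.6 and 28.7 in shGDF11. The groups did not overlap, but the lowest control was close to the highest shGDF11 library, and Esrra was not called (-0.44, 95% interval -0.82 to -0.05, limma adjusted p = 0.0918). It was called lower in 4 of 20 alternatives, among them without control replicate 3 (-0.59, limma adjusted p = 0.0287). Without control replicate 1 its log2 fold change was -0.27 (limma adjusted p = 0.154). The FPKM ratio of Esrra to Esrrg, taken as the geometric mean over libraries, was 10.1 in control and 3.71 in shGDF11.

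Of the PGC-1 coactivator genes, Ppargc1b was called and Ppargc1a was not, and the difference between them was not tested. Ppargc1b (chromosome 18, 61298136 to 61400431, minus strand) was at 8.47, 7.85 and 7.36 FPKM in control and 6.22, 5.43 and 5.70 in shGDF11. The groups were apart, and Ppargc1b fell by 0.42 (SE 0.0815, limma adjusted p = 0.0107). Ppargc1a was at 10.8, 14.2 and 13.8 and at 14.9, 15.9 and 14.4 FPKM, with every shGDF11 library above every control by a small margin, and was not called (0.22, 95% interval -0.03 to 0.47, limma adjusted p = 0.173). The ratio of Ppargc1a to Ppargc1b was 1.63 in control and 2.60 in shGDF11.

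**Figure D4:**
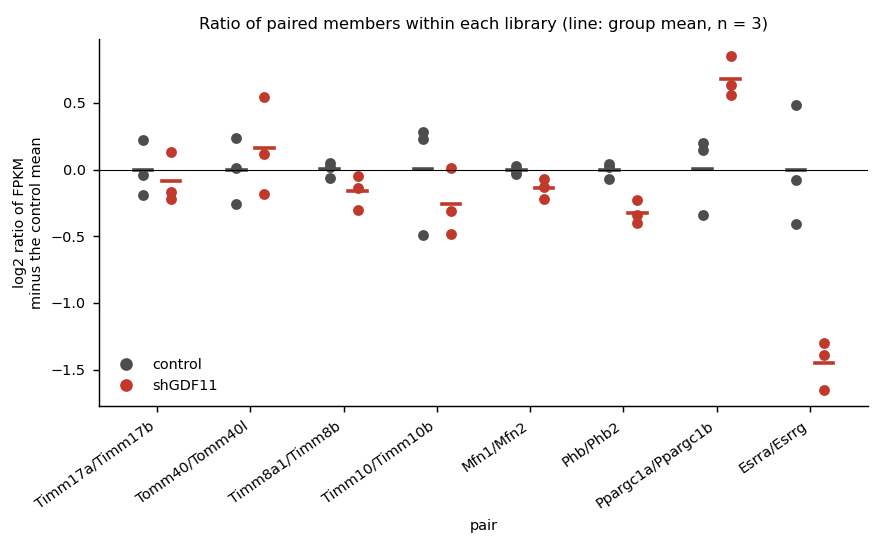
Log2 ratio of FPKM between paired members in each library, minus the mean ratio of the control libraries (horizontal lines: group means, n = 3). The ratios of Esrra to Esrrg, Ppargc1a to Ppargc1b, Phb to Phb2 and Mfn1 to Mfn2 do not overlap between the groups, and those of the other 4 pairs shown do.

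Of the 9 pairs compared in this way, 4 had no overlap between the groups, while 45.8% of all single genes tested had no overlap. The share over other gene pairs was not computed. This count is a description and carries no test, since 3 libraries against 3 cannot give an exact permutation p below 0.1. The log2 ratio moved by -1.44 for Esrra to Esrrg, by 0.68 for Ppargc1a to Ppargc1b, by -0.32 for Phb to Phb2 and by -0.13 for Mfn1 to Mfn2. Timm17a to Timm17b was 0.81 ± 0.208 in control and 0.72 ± 0.189 in shGDF11, and Tomm40 to Tomm40l 3.24 ± 0.252 and 3.40 ± 0.363.

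The remaining regulators were not called. Perm1, a muscle-specific partner of the PGC-1 coactivators, was at 16.1, 16.9 and 14.3 FPKM in control and 13.2, 12.7 and 14.2 in shGDF11. Its groups were separated by a narrow margin (-0.23, limma adjusted p = 0.0767), and it was called lower without control replicate 3 (-0.29, limma adjusted p = 0.0341). Tfam, which packages and transcribes mitochondrial DNA, was at 7.57, 8.15 and 8.55 and at 10.3, 9.14 and 8.25 FPKM (0.17, 95% interval -0.04 to 0.39). Nrf1, an activator of nuclear genes for mitochondrial proteins, was at 2.84, 2.40 and 2.66 and at 2.57, 2.62 and 2.85 FPKM, with overlapping groups (0.02, 95% interval -0.19 to 0.24).

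**Figure D5:**
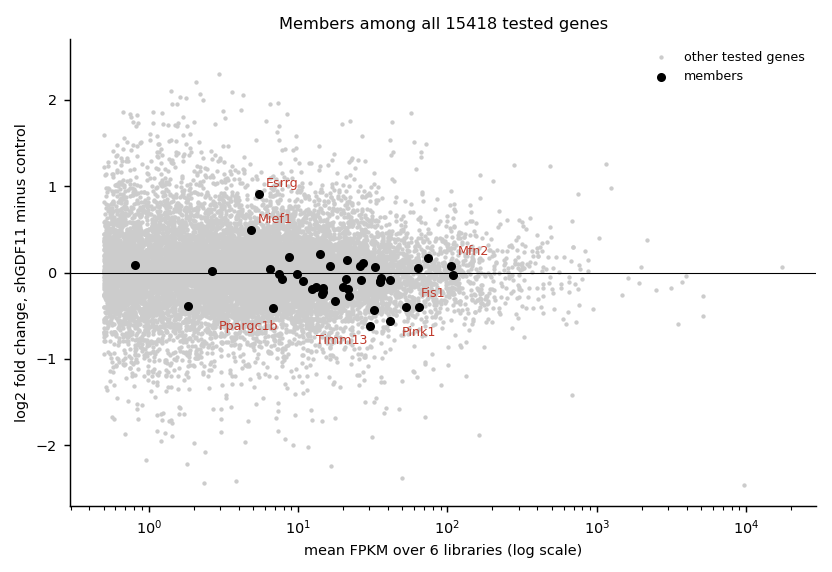
Log2 fold change (shGDF11 minus control) against mean FPKM (log axis) for all 15418 tested genes, with the 42 tested members in black. Most members lie close to 0 among the other genes, with Esrrg and Mief1 above and Timm13 and Pink1 below, and 3 genes beyond 2.7 in either direction are outside the axis.

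A wider list of 116 related genes was read beside the members. Of 112 tested, 9 were called higher and 24 lower (8.04% and 21.4%, against 14.4% and 13.1% of all genes tested), with a median log2 fold change of -0.01. Among 20 partners of the import machinery, 1 was higher and 3 lower. Hspa9, the motor chaperone of the matrix, rose from 176.0 ± 3.40 to 210.1 ± 4.64 FPKM (limma adjusted p = 0.0137). The presequence protease subunit gene Pmpca fell from 33.7 to 26.4 FPKM, Mipep, a second processing peptidase, from 6.05 to 4.55, and Agk, a kinase of the TIM22 complex, from 1.74 to 1.18 FPKM.

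Genes of the cristae and of inner membrane and matrix proteases were mixed, with 3 higher and 4 lower of 18. That is 16.7% and 22.2%, against 14.4% and 13.1% of all genes tested. The matrix protease gene Lonp1 rose from 62.6 ± 3.84 to 86.2 ± 1.8 FPKM, and Afg3l2, a subunit of the inner membrane AAA protease, fell from 72.9 ± 5.10 to 52.1 ± 1.82 FPKM (limma adjusted p = 0.00264 and 0.00321). Letm1, an ion exchanger of the inner membrane, fell from 10.3 to 7.48 and Clpp, a matrix protease subunit, from 35.6 to 28.0 FPKM. Of 16 other shaping and transport factors, 2 were higher and 4 lower (12.5% and 25.0%). Trak2, an adaptor that links mitochondria to motor proteins, rose from 27.6 to 43.3 FPKM, whereas its paralog Trak1 fell from 19.6 to 16.3 FPKM. Inf2, a formin that acts in fission, fell from 18 to 13.3 FPKM and Pgam5, a mitochondrial phosphatase, from 5.10 to 3.56 FPKM.

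Other mitophagy genes were lower where they were called, with 5 lower and 0 higher of 14. That is 35.7% and 0%, against 13.1% and 14.4% of all genes tested. Bnip3, a receptor of mitophagy that is also a target of hypoxia-inducible factor, fell from 155.8 ± 12.5 to 86.5 ± 3.58 FPKM (log2 fold change -0.84, limma adjusted p = 0.000694). Its relative Bnip3l fell from 63.7 to 46.1 FPKM, the autophagy kinase gene Ulk1 from 19.5 to 14.0 and the adaptor gene Sqstm1 from 211.1 to 164.8 FPKM. Of 19 genes for the upkeep and transcription of mitochondrial DNA, 4 were lower and 0 higher (21.1% and 0%). They were Polrmt, the mitochondrial RNA polymerase (13 to 9.22 FPKM), Tfb2m, its initiation factor (13.5 to 9.04 FPKM), Top1mt (6.82 to 5.15 FPKM) and Dna2 (3.23 to 2.33 FPKM).

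Of 25 further regulators of biogenesis, 3 were higher and 4 lower. That is a smaller share higher and a larger share lower than over all genes tested (14.4% and 13.1%). Prkaa1, a catalytic subunit of the energy sensor AMPK, rose from 9.08 ± 1.01 to 14.9 ± 0.627 FPKM (log2 fold change 0.69, limma adjusted p = 0.00218). The nuclear receptor gene Ppard fell from 7.64 to 4.19 FPKM, Klf4 from 8.21 to 5.51 and Klf15 from 2.54 to 1.47 FPKM. Gabpa, named after its values were seen because its product binds the GABP letters counted above, rose from 10.6 ± 1.44 to 13.9 ± 0.497 FPKM (limma adjusted p = 0.0303).

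Several of these calls were lost when 1 library was left out. Leaving out an shGDF11 library also gave fewer calls over all genes, 1263 to 1414 higher and 1083 to 1308 lower, against 2227 and 2026. The calls of Hspa9 and Gabpa were lost without any 1 shGDF11 library. So were those of Agk, Klf15, Mipep, Clpp and Tfb2m, which were also lost on omitting a control: replicate 1 or 2 for Agk and Klf15, 2 or 3 for Mipep, 3 for Clpp and 2 for Tfb2m. Trak1 lost its call without control replicate 1 or 2 or shGDF11 replicate 1 or 2, Polrmt without control replicate 2 or shGDF11 replicate 2, Dna2 without shGDF11 replicate 1 or 3, and Top1mt without control replicate 3 or shGDF11 replicate 2 or 3. The largest limma adjusted p of these 11 genes over all alternatives ran from 0.0537 for Polrmt to 0.157 for Trak1.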

How the data were processed

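Values were FPKM that the authors computed and deposited per gene for 3 shGDF11 and 3 control libraries, with gene lengths, names and biotypes. Per the submitters' processing notes, CASAVA 1.8, HISAT2 2.0.5, featureCounts 1.5.0-p3 and GRCm38 (mm10) were used, with no role given. Libraries were grouped by treatment label. Of 54495 gene identifiers found in GENCODE M21, 53585 had the same coordinates. FPKM times length was a whole multiple of 1 step in 100% of positive values (within 0.05 of a read), which gave reads per gene. Reads cover counting error only.

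Testing used limma 3.58.1 on log2(FPKM + 0.5) of every gene averaging 0.5 FPKM or more (eBayes with a variance trend, two-sided, R 4.3.3) and Benjamini-Hochberg adjustment over all genes. This scale understates changes of low genes. The fit was tested on simulated reads. Alternatives changed the pseudocount, filter, scaling, biotypes, variance model, library weights, replicate block, GC and length trends and the libraries included, or used voom on reads.

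Every member is named, and of each related list up to 4 called genes with the smallest p, with Gabpa added after its values were seen. Members, lists and motifs were chosen with earlier results of these data known.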

Additional observations from a re-analysis of the deposited data

How the results depend on the processing

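The direction of every call among the members was kept under all 20 alternatives, or for Mief1 under the 19 in which it was tested. Of 836 member values under alternatives, 786 kept their side of the threshold, 35 lost a call and 15 gained one. Members not called in either fit changed sign in 33 values. The 2 members called higher were 1 at a mean of at least 5 FPKM, where Mief1 was not tested. The 7 called lower were 2 with no filter on low values and 4 without the variance trend, and 10 with voom on reads. Leaving out 1 library gave 2 members higher each time and 2 to 8 lower. Over all genes, 1474 were called higher at a mean of at least 5 FPKM, where fewer genes were tested, and 1242 lower after rescaling to TPM. TPM divides each value by the summed FPKM of its library, which was 315542 to 351657 in control and 304770 to 309981 in shGDF11. The part of this difference in the calls was not tested. Leaving out 1 library gave 1263 to 2252 genes higher and 1083 to 1986 lower. With the replicate number as a block, 2 members were higher and 6 lower, and 1655 genes higher and 1568 lower. Libraries of the same number did not deviate together (r = -0.0521 to 0.0153), nor did those of different number (r = -0.0558 to 0.0457). Noise of single libraries can hide a pairing, so whether the numbers pair them was not settled. Low reads limit Tomm20l, Tomm6, Timm8a2 and Timm10b.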
